A study of Mus musculus with 18 samples.

Results

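Wild-type littermates serve as the reference for mice that lack a voltage-gated sodium channel of pain-sensing neurons. Here the 3 littermate arrays of the Nav1.7 line were compared with the 6 littermate arrays of the Nav1.8 and Nav1.9 lines, 3 per line. These are 9 of the 18 arrays of the series, and no knockout (KO) array entered the comparison. The question is which genes differ between mice that are all labelled wild type. A gene was counted where all 3 Nav1.7 littermates lay outside the range of the 6 others and the difference passed the test, an adjusted p under 0.05 from limma. Genes on the sex chromosomes were left out. Of 17526 autosomal genes, 2327 met both conditions.

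RNA was taken from dorsal root ganglia (DRG) of all spinal levels of adult mice and measured on Affymetrix mouse genome arrays. The 3 Nav1.7 littermates come from the line in which floxed *Scn9a*, the Nav1.7 gene, is deleted from sensory neurons by Cre driven by the Advillin promoter. The 3 Nav1.8 and 3 Nav1.9 littermates come from lines with a global loss of *Scn10a* or *Scn11a*. All 9 arrays carry the genotype label wild type. Whether the Nav1.7 littermates kept floxed alleles, the strain background of each line and the hour at which tissue was taken are not given in the sources used here. The labels do not say whether the 3 arrays of a group held separate animals, so the spread behind each p-value may be technical. With 3 arrays per group, the precision is limited by their number.

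DRG hold the cell bodies of sensory neurons with their satellite glia, and around them Schwann cells, vessels, fibroblasts and resident macrophages. The neurons fall into peptidergic nociceptors, which release substance P and related peptides, non-peptidergic nociceptors, and several classes of mechanoreceptor and proprioceptor. In whole ganglia, fewer cells of a type and less RNA per cell cannot be told apart. The tissue label was borne out by *Avil*, the sensory neuron gene advillin, at 12.79 to 12.94 on the log2 scale in all 9 arrays, with a difference between the lines of -0.00 (adjusted p = 0.997).

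The Nav1.7 littermates also differed from the others by sex chromosome genes. *Xist*, the X inactivation transcript of female cells, was 11.97 to 12.29 on the log2 scale in the 3 Nav1.7 littermates and 5.24 to 5.65 in the 6 others. The Y-linked genes *Eif2s3y*, *Uty* and *Kdm5d* showed the opposite pattern, with *Eif2s3y* at 3.91 to 4.86 against 9.30 to 9.45. Line and *Xist* class therefore cannot be told apart within these 9 arrays. A second fit of all 18 arrays, with the *Xist* class as a term, is given beside the main values. In it the KO arrays of the Nav1.7 and Nav1.8 lines, which hold both classes, set the effect of the class.

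Arrays of a group correlated at 0.9974 to 0.9984 across genes, Nav1.8 with Nav1.9 littermates at 0.9958 to 0.9972, and Nav1.7 with other littermates at 0.9941 to 0.9957. Genes are not independent replicates, so these values only describe the arrays. Array medians lay between 6.33 and 6.36. In the test alone, 2968 autosomal genes passed (16.9% of those tested), 987 of them higher in Nav1.7 littermates (5.63%) and 1981 lower (11.3%). By the range alone, 3069 genes lay outside (17.5%), 1101 above (6.28%) and 1968 below (11.2%). The 2327 genes that met both conditions (13.3%) comprised 756 higher (4.31%) and 1571 lower genes (8.96%).

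Most of these differences were small. Their median size was 0.27 on the log2 scale, within a range of 0.11 to 2.43, against a median of 0.08 over all autosomal genes. Only 257 exceeded 1.5-fold (1.47% of the genes tested), and of these 219 were lower (1.25%) and 38 higher (0.217%) in Nav1.7 littermates. Beyond 2-fold there were 59 lower (0.337%) and 5 higher genes (0.0285%). The range rule has no margin, and the nearest array of *Ankrd42* cleared the other arrays by 4.4e-05. In the other direction, 641 genes (3.66%) passed the test but overlapped, by up to 0.64 in *Atp10d*, and 742 (4.23%) lay outside without passing the test. The share of higher genes among all that passed was 33.3%, and became 53.0% after quantile normalization and 64.5% after median centring, so no direction is given for the small differences as a whole. Of the 257 larger differences, 253 and 254 still passed in the same direction under these scalings, 38 of them higher in each case.

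**Figure D1:**
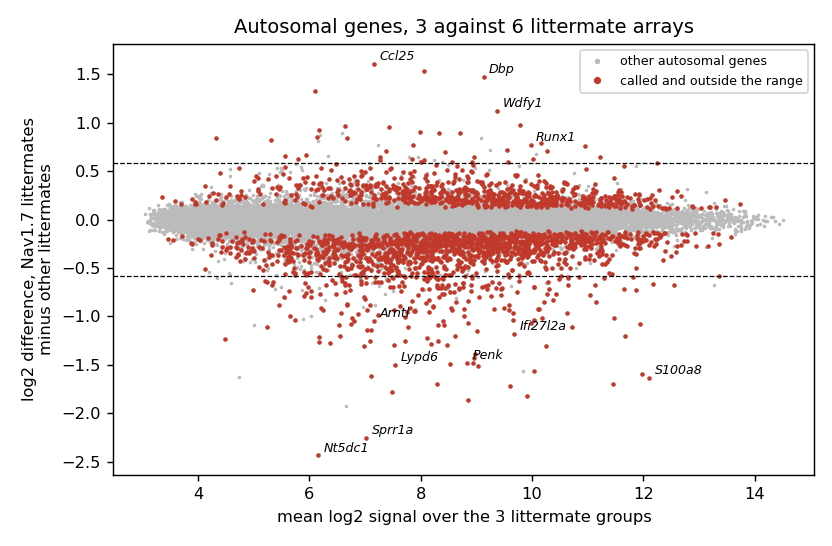
Log2 difference between Nav1.7 littermates and the other littermates (y axis) against mean log2 signal (x axis), 1 point per autosomal gene. Red points are the 2327 genes that passed the test and lay outside the range of the 6 other arrays, and dashed lines mark 1.5-fold. Beyond the dashed lines there are more red points below than above.

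In the fit with the *Xist* class, 964 autosomal genes passed the test (5.5%, against 16.9% in the main fit), 279 higher and 685 lower. List counts from that fit are to be read against these numbers. Of the 2327 genes, 768 passed in the same direction. Of the 257 differences over 1.5-fold, 182 still passed, 26 higher and 156 lower, and none changed sign. Fewer calls in that fit need not mean smaller differences. *Chil3*, for example, went from -1.87 to -2.49 and no longer passed. The median of the antigen presentation list went from -0.29 to -0.43, and that of the heat shock list from -0.23 to -0.15. The value from that fit is given below for the genes and lists the results turn on, and not for every gene named.

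*Penk*, the precursor of the enkephalins, was lower in Nav1.7 littermates than in any other littermate. Its log2 signal was 7.88, 7.77 and 7.90 in the 3 Nav1.7 littermates, 9.51, 9.47 and 9.56 in the Nav1.8 littermates, and 9.14, 9.10 and 9.20 in the Nav1.9 littermates. The group means were 7.85 ± 0.0727 (SD, n = 3 arrays), 9.51 ± 0.0465 and 9.15 ± 0.0536. The 3 groups did not overlap, and the 2 other lines lay closer to each other than to the Nav1.7 line. The difference of -1.48 on the log2 scale, 2.79-fold, had an adjusted p of 2.36e-07. With the *Xist* class in the fit it was -0.31 and did not pass (adjusted p = 0.144). That fit gives each KO group its own mean, and takes the class effect from differences between the classes within KO groups. By qPCR of lumbar ganglia, the paper saw no *Penk* difference between female and male wild-type mice. What lowers the value in that fit was not tested. *Pnoc*, the nociceptin precursor, was 1.20-fold higher in Nav1.7 littermates (adjusted p = 0.0105, and 0.329 with the *Xist* class). The other 6 of the 8 opioid genes did not pass (25% called, against 16.9% of autosomal genes), among them the receptor genes *Oprm1* (-0.02), *Oprd1* (-0.06) and *Oprk1* (0.11 on the log2 scale).

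Of the genes named in work on the Nav1.7 KO arrays, *Runx1*, a transcription factor of non-peptidergic nociceptors, was 10.56, 10.50 and 10.43 in Nav1.7 littermates and 9.72 ± 0.207 (SD, n = 6 arrays) in the others, all of which were lower. It was 1.71-fold higher (adjusted p = 0.000314). Of its 5 other probe sets, 2 also lay above the range, with differences of 0.22 and 1.12, and 3 were within it. *Hoxb5* was 1.23-fold higher (adjusted p = 0.0326, and 0.0441 with the *Xist* class), and its call was lost without any 1 Nav1.7 littermate or Nav1.8 littermate replicate 2 or 3. *Ceacam10* differed by -0.13 (adjusted p = 0.218) and the groups overlapped. The genes of the 3 channels did not pass at their brightest probe sets. *Scn9a* was 12.24 to 12.35 in Nav1.7 littermates, between 12.08 to 12.14 in Nav1.8 and 12.32 to 12.50 in Nav1.9 littermates (difference 0.06, adjusted p = 0.492). Of its 4 other probe sets, 2 lay above the range, with differences of 0.47 and 0.63, and these probe sets are dimmer. *Scn10a* differed by -0.00 (adjusted p = 0.989). *Scn11a* differed by 0.28 (adjusted p = 0.143), and its 3 Nav1.7 littermates lay above the range by 0.01.

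The largest decrease was in *Nt5dc1*, a gene of a family of nucleotidase domain proteins. It was 4.69, 4.55 and 4.34 in the 3 Nav1.7 littermates, 7.05, 6.97 and 7.07 in Nav1.8 littermates and 6.82, 6.78 and 7.08 in Nav1.9 littermates. This 5.40-fold difference (adjusted p = 4.41e-07) was measured by 1 probe set, and with the *Xist* class it was -2.04 (adjusted p = 0.0104). The gap between the groups was 2.10 on the log2 scale, the largest of all genes counted.

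Of the other genes among the 15 largest decreases, *Fads2*, *Gabarapl1* and *Arl2bp* are in none of the gene lists. *Fads2*, a desaturase in the synthesis of polyunsaturated fatty acids, was 7.96 to 8.11 against 9.34 to 9.71, 2.86-fold lower (adjusted p = 1.11e-06). Its other 2 probe sets differed by -0.50 and -0.32, and the second overlapped. *Gabarapl1*, an autophagy gene related to the GABA receptor-associated protein, was 10.66, 11.06 and 11.04 against 12.23 to 12.80, 3.02-fold lower (adjusted p = 4.53e-06), and its second probe set differed by -1.48. *Arl2bp*, which encodes a binding partner of the small GTPase Arl2, was 8.35, 8.89 and 8.85 against 10.30 to 10.90, 3.54-fold lower (adjusted p = 1.6e-05). Its second probe set differed by -0.58 and overlapped. These 3 genes and *Nt5dc1* all passed with the *Xist* class in the fit, where *Fads2* differed by -1.39 (adjusted p = 3.62e-05) and *Gabarapl1* by -1.43 (adjusted p = 4.09e-05).

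Among the increases, *Wdfy1*, a gene with a known difference between mouse strains, was 10.13, 10.10 and 10.12 in Nav1.7 littermates. It was 8.43, 8.34 and 8.46 in Nav1.8 and 9.57, 9.54 and 9.62 in Nav1.9 littermates, so all 3 lines stood apart. The difference was 2.18-fold (adjusted p = 4.41e-07), 2 further probe sets lay above the range and 2 did not. *Ccl25*, a chemokine, was 7.65, 8.29 and 8.74 against 6.35 to 7.21, and the 3 Nav1.7 littermates differed widely among themselves. Its 3.06-fold increase (adjusted p = 0.00237) was not seen in its second probe set (0.07) and did not pass with the *Xist* class (adjusted p = 0.614). *Abhd1*, an abhydrolase gene, was 7.12, 6.88 and 6.95 against 5.50 to 5.85, 2.51-fold higher (adjusted p = 3.43e-06, and 0.116 with the *Xist* class). The uncharacterised transcript 6820431F20Rik was 9.02 to 9.13 against at most 7.93, 2.90-fold higher (adjusted p = 4.96e-06).

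The others among the 15 largest increases were *Dbp*, *Per2* and *Ciart*, described with the clock genes, and 8 more. *Mctp1*, a calcium-binding C2 domain gene, was 8.45 to 8.71 in Nav1.7 littermates against 7.40 to 8.06 in the others (adjusted p = 5.92e-05). *Ano3*, an anoctamin, was 8.80 to 8.98 against 7.27 to 8.62 and did not pass against Nav1.9 littermates alone, from which it differed by 0.34. *Zfp458*, a zinc finger gene, differed by 0.93 at its brighter probe set and by 0.01 at the second. *Rbm45*, an RNA-binding protein gene, differed by 0.90, *Aox4*, an aldehyde oxidase gene, by 0.85 (0.35 from Nav1.8 littermates, against which alone it did not pass, and 1.35 from Nav1.9 littermates), and *Ifi202b*, an interferon-inducible gene, by 0.84. The transcripts 2610507I01Rik and 2900052N01Rik both differed by 0.97. For 2610507I01Rik the difference was 0.31 from Nav1.8 and 1.63 from Nav1.9 littermates, and its call was lost with the 6 others as 1 group. For 2900052N01Rik, Nav1.7 littermate replicates spread from 9.63 to 11.12 against at most 9.60 in the others, and the call was lost without Nav1.7 littermate replicate 2 or 3 or Nav1.8 littermate replicate 1. Among the 15 largest decreases were 8 genes of myeloid cells, *Sprr1a* and *Atf3* of the nerve injury list, and *Lypd6*, each described below.

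**Figure D2:**
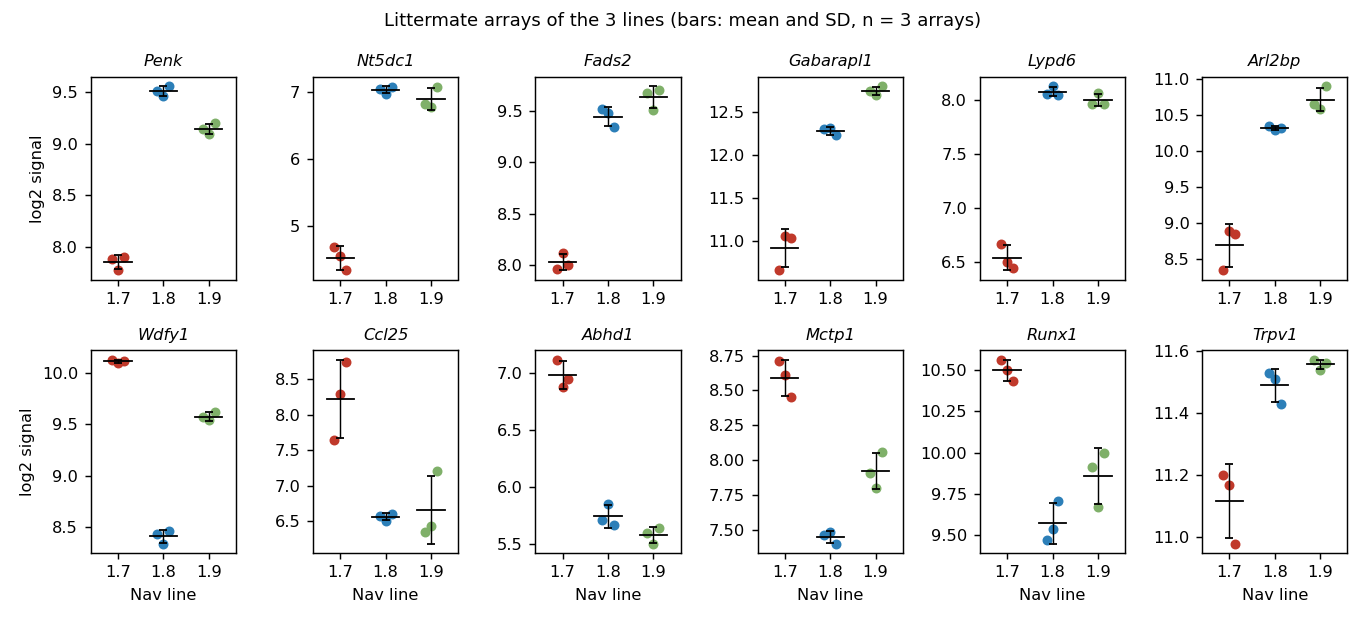
Log2 signal (y axis, which does not start at 0) of 12 genes in each of the 9 littermate arrays, by Nav line (x axis), with the mean and SD of each group of 3 arrays. In each of the 12 genes all 3 Nav1.7 littermates lie outside the range of the 6 others.

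The most complete pattern across a gene list was in the circadian clock. In this transcriptional loop, BMAL1 (encoded by *Arntl*) and CLOCK drive E-box promoters of the period and cryptochrome genes, whose proteins inhibit them. Output factors such as DBP, TEF and HLF act at D-boxes, and NFIL3 opposes them there. Of 17 measured clock genes, 12 were higher in Nav1.7 littermates, 2 were lower and 3 did not pass (82.4% called, against 16.9% of autosomal genes). All 14 also lay outside the range. The median difference of the list was 0.33, against -0.02 over all autosomal genes.

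*Arntl* was among the 2 lower genes, at 6.39, 6.68 and 6.34 in Nav1.7 littermates against 7.41 to 7.62 in the 6 others, 2.06-fold lower (adjusted p = 7.1e-05). *Nfil3* was the other, at 6.50 to 6.55 against 6.60 to 6.96, 1.23-fold lower (adjusted p = 0.00981). The partners of BMAL1 did not pass, with differences of 0.05 for *Clock* and 0.02 for *Npas2*.

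The inhibitory arm was higher. *Per1* was 8.88, 9.03 and 9.13 against 8.08 to 8.75, 1.47-fold higher (adjusted p = 0.00292). *Per2* was 7.87, 7.93 and 8.42 against at most 7.34, 1.94-fold higher (adjusted p = 0.00259). *Per3* was 8.45, 8.32 and 8.37 against 7.28 to 7.84, 1.71-fold higher (adjusted p = 0.000527). The cryptochromes differed less, with *Cry1* 1.16-fold (adjusted p = 0.0236) and *Cry2* 1.18-fold higher (adjusted p = 0.0134). *Ciart*, a repressor of the loop, was 7.10 to 7.37 against 6.15 to 6.57, 1.79-fold higher (adjusted p = 0.000252). Of the E-box repressors, *Bhlhe40* was 1.23-fold and *Bhlhe41* 1.35-fold higher (adjusted p = 0.0227 and 0.00534).

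The output genes were also higher. *Dbp* was 10.12 ± 0.102 in Nav1.7 littermates (mean ± SD, n = 3 arrays), 8.98, 8.69 and 8.30 in Nav1.8 littermates and 8.59, 8.95 and 8.32 in Nav1.9 littermates. That is 2.78-fold (adjusted p = 0.000437), and its second probe set differed by 1.39. All 3 Nav1.7 littermates were higher than the others, and the Nav1.8 and Nav1.9 littermates covered nearly the same span. *Tef* was 1.25-fold and *Hlf* 1.26-fold higher (adjusted p = 0.00267 and 0.00597). Of the nuclear receptors of the loop, *Nr1d2* was 11.55 to 11.73 against 10.85 to 11.10, 1.57-fold higher (adjusted p = 0.000232), and *Nr1d1* lay above the range with a difference of 0.24 but did not pass (adjusted p = 0.0628).

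**Figure D3:**
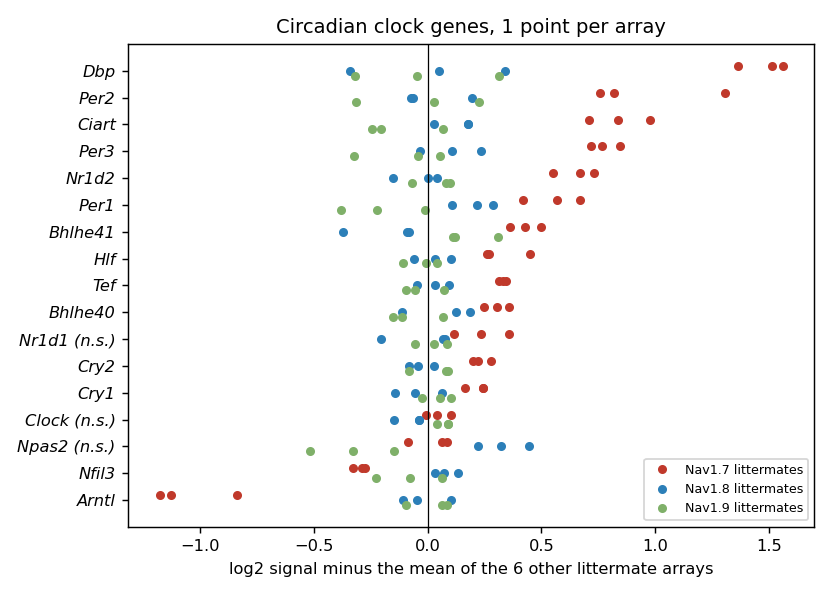
Log2 signal of each littermate array minus the mean of the 6 other littermate arrays (x axis) for 17 clock genes (y axis), 1 point per array, and n.s. marks the 3 genes that did not pass the test. The Nav1.7 littermates lie above the others in 13 genes and below them in *Arntl* and *Nfil3*.

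The clock counts were 11 higher and 3 lower against the Nav1.8 littermates alone, and 10 higher and 1 lower against the Nav1.9 littermates alone. They were 9 to 12 higher and 2 lower without any 1 array. In the fit with the *Xist* class, 5 genes were higher (*Nr1d2*, *Dbp*, *Ciart*, *Per3* and *Cry2*) and *Arntl* was lower. Of all autosomal genes, 5.5% passed in that fit.

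Promoter sequence was available for 12 of the 14 clock genes, as RefSeq windows on GRCm38.p6 from 250 bases before to 50 after a gene's start. *Bhlhe40* and *Per2* had no window. The E-box, searched as CACGTG on both strands, was in windows of 5 of the 12 genes (*Bhlhe41*, *Ciart*, *Cry1*, *Per1* and *Tef*), and in those of 8.09% of all 27025 genes. *Tef* has 2 windows with 1 match each. The D-box, searched as TTANGTAA on both strands, was in that of *Per3*, and in those of 2.72% of all genes. A stretch of 120 bases is shown for the 2 genes with more than 1 match in a single window and for *Cry1*, read on the strand of the gene, with the matches in capitals. That of *Ciart* lies at chr3:95882235-95882354 (minus strand), that of *Per3* at chr4:151044761-151044880 (minus strand) and that of *Cry1* at chr10:85185055-85185174 (minus strand), all upstream of the start.
*Ciart*: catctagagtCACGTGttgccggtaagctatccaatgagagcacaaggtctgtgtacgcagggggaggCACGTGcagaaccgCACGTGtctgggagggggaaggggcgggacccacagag
*Per3*: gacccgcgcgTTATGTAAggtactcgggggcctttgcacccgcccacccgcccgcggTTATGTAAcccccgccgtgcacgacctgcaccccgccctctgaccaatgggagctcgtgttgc
*Cry1*: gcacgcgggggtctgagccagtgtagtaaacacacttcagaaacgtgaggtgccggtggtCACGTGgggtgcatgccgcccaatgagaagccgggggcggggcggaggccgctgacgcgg
*Ciart* holds 3 E-boxes, *Per3* 2 D-boxes and *Cry1* 1 E-box. All 3 genes were higher in Nav1.7 littermates, as were 12 of the 14 clock genes that met both conditions. The list holds genes of a loop that works through these elements, and its other genes were not searched. The shares of genes with a match are thus no result of these arrays. A match is a description of the letters and not a measured binding site.

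A second pattern was in genes of the innate immune system. Interferons induce antiviral genes through interferon-stimulated response elements in their promoters. Of 19 measured interferon-response genes, 12 were lower in Nav1.7 littermates, none passed as higher and 7 did not pass (63.2% called, against 16.9%). The median difference was -0.55. Without the adjustment, at a p under 0.05, 15 were lower and 1 was higher. The mean log2 signal of the list was 7.97 to 8.02 in the 3 Nav1.7 littermates, 8.84, 8.85 and 8.35 in Nav1.8 littermates and 8.42, 8.26 and 8.51 in Nav1.9 littermates.

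*Ifi27l2a*, an interferon-induced mitochondrial protein gene, was 8.97, 8.71 and 8.98 against 9.87 to 10.26, 2.27-fold lower (adjusted p = 6.16e-06, and 0.000906 with the *Xist* class). *Ifit1*, an inhibitor of viral translation, was 8.23, 8.20 and 8.30 in Nav1.7 littermates, 9.87, 9.85 and 8.74 in Nav1.8 littermates and 9.48, 8.93 and 9.49 in Nav1.9 littermates. The Nav1.7 littermates lay close together and the others spread over more than a unit, so its 2.22-fold difference had an adjusted p of 0.0108. *Usp18*, a protease that limits interferon signalling, was 2.38-fold lower (adjusted p = 0.0026). *Rsad2*, the antiviral enzyme viperin, was 1.64-fold lower, *Oas1a*, an oligoadenylate synthetase, 1.41-fold and *Ifih1*, the RNA sensor MDA5, 1.46-fold lower. *Gbp2*, a guanylate-binding protein gene, was 8.06 to 8.17 against 8.37 to 9.79, with Nav1.8 littermate replicates 1 and 2 above the rest (adjusted p = 0.046). *Bst2* passed but overlapped. Lower genes of the list numbered 7 against the Nav1.9 littermates alone, 8 to 15 without any 1 array and 5 with the *Xist* class. In that last fit the median of the list was -0.608.

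Windows were available for 8 of the 11 interferon genes that met both conditions, and not for *Ifi27l2a*, *Rtp4* and *Usp18*. The interferon-stimulated response element, searched on both strands as GAAA, any 2 bases and GAAA again, was in 7 of the 8 (*Ddx58*, *Gbp2*, *Gbp3*, *Ifih1*, *Ifit1*, *Oas1a* and *Rsad2*), and in windows of 3.99% of all genes. The 2 genes shown hold 2 matches each, of which those of *Oas1a* overlap. They lie at chr19:34640769-34640888 (plus strand) for *Ifit1* and chr5:120907526-120907645 (minus strand) for *Oas1a*, and the capitals mark the matches.
*Ifit1*: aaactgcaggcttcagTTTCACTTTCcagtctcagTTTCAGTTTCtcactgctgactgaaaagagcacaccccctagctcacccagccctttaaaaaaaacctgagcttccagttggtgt
*Oas1a*: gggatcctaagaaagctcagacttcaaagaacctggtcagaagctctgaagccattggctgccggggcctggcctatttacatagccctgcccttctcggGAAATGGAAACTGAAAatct
In *Ifit1* the matches stand on the strand opposite to the gene. No match says only that these letters are absent from a window, as in *Oasl2*. Interferon genes were listed as genes of a response that works through this element, so the share with a match is no result of these arrays.

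Genes of neutrophils were lower as well. The blood list holds 9 measured genes, and its 5 that passed (55.6%, against 16.9% of autosomal genes) were all of this kind, while the haemoglobin genes *Hba-a1* (0.01), *Hba-a2* (0.10) and *Hbb-b2* (-0.09) did not pass. *S100a8*, a subunit of calprotectin, was 11.05, 11.01 and 10.98 in Nav1.7 littermates, 13.14, 12.08 and 13.24 in Nav1.8 littermates and 12.67, 11.86 and 12.90 in Nav1.9 littermates. It was 3.11-fold lower (adjusted p = 0.00436). *S100a9*, its partner, was 3.23-fold lower, *Camp*, the cathelicidin precursor, 3.28-fold, *Ngp* 2.96-fold and *Ltf*, lactoferrin, 2.62-fold lower. In each of the 5 genes, replicate 2 was the lowest array of both the Nav1.8 and the Nav1.9 littermates, and still lay above all Nav1.7 littermates.

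Further myeloid genes stood among the 15 largest decreases. *Chil3*, a chitinase-like protein gene, was 7.35 to 7.79 against 8.42 to 10.30, 3.65-fold lower (adjusted p = 0.0173). *Ifitm6* was 3.43-fold, *Lcn2*, lipocalin 2, 3.25-fold and *Slfn4* 3.06-fold lower. With the *Xist* class the 5 neutrophil genes differed by -1.79 to -2.12 and did not pass (adjusted p of 0.0586 to 0.131), as did *Chil3*, *Lcn2* and *Slfn4*, whereas *Ifitm6* passed (adjusted p = 0.0234). The call for *Chil3* was also lost against the Nav1.9 littermates alone and without Nav1.7 littermate replicate 1 or 2, and that for *Slfn4* without replicate 2.

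Macrophage markers showed the same direction with a smaller spread. Of 17 measured, 12 were lower in Nav1.7 littermates, none passed as higher and 5 did not pass (70.6% called, against 16.9% of autosomal genes). All 12 lay below the range, as did 11.2% of autosomal genes. The mean of the list was 7.22, 7.13 and 6.90 in Nav1.7 littermates against 7.45 to 7.70 in the 6 others. Without the adjustment, at a p under 0.05, 14 were lower and 1, *Cd163*, was higher. The complement genes *C1qa*, *C1qb* and *C1qc* were 1.87-fold, 1.52-fold and 1.66-fold lower. *C1qa* was 7.85, 7.61 and 7.37 against 8.27 to 8.64 (adjusted p = 0.000504). *Lyz2*, lysozyme, was 9.95 to 10.07 against 10.70 to 11.44, 2.16-fold lower (adjusted p = 0.00262), *Adgre1*, the F4/80 antigen, was 1.47-fold lower, and *Csf1r*, the receptor for the macrophage growth factor, 1.34-fold lower. With the *Xist* class 11 were lower, in a fit where 5.5% of autosomal genes passed, and the median of the list moved from -0.43 to -0.77.

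Other cells of the ganglion gave fewer calls, to be read against the 16.9% of autosomal genes that passed (5.63% higher and 11.3% lower). Of 15 genes of antigen presentation, 6 were lower (40%), among them *H2-M3* at 1.49-fold (adjusted p = 0.000169) and *B2m*, the shared light chain of class I molecules, at 1.26-fold (adjusted p = 0.0301). That count was 3 after median centring, 2 against the Nav1.9 littermates alone or without Nav1.7 littermate replicate 1 or 3, and 1 with the *Xist* class. The median of this list was -0.29, and -0.43 in that last fit. Of 14 lymphocyte and mast cell genes, 1 was lower (7.14%), the cytotoxic cell gene *Nkg7* (lost without Nav1.7 littermate replicate 1 or Nav1.9 littermate replicate 3), and the T cell gene *Cd3e* differed by -0.07. Of 15 endothelial and pericyte genes, 7 were lower (46.7%), with *Cldn5*, a tight junction gene, at 7.39 to 7.59 against 8.39 to 8.52, 1.93-fold lower (adjusted p = 1.1e-05), and *Rgs5*, a pericyte gene, 1.65-fold lower. The other probe sets of *Rgs5* overlapped, with differences of 0.51, -0.14 and -0.25, and its call was lost with the mean of all probe sets. The calls for *Cldn5* and *Rgs5* were also lost with the *Xist* class. The endothelial count was 3 under quantile normalization or median centring, and 4 without Nav1.7 littermate replicate 2 or 3 or Nav1.8 littermate replicate 2. With the *Xist* class it was 6, and the median of the list moved from -0.216 to -0.366. Of 15 fibroblast and meningeal genes, 4 were lower and none passed as higher (26.7% called). These were the collagen genes *Col1a1*, *Col1a2* and *Col3a1*, with differences of -0.57, -0.42 and -0.57, and *Slc6a13*, a transporter gene of the meninges, at 5.78 to 6.18 against 6.99 to 7.28, 2.12-fold lower (adjusted p = 6.47e-05). The call for *Col1a1* was lost against the Nav1.9 littermates alone and without Nav1.7 littermate replicate 2 or 3. With the *Xist* class 4 fibroblast and meningeal genes were lower, and the median of the list moved from -0.419 to -0.725.

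Of 10 Schwann cell genes, 2 were higher and 3 lower (50% called, against 16.9% of autosomal genes). With the *Xist* class none of this list passed in either direction. *Scn7a*, a higher gene, lies 0.19 Mb from *Scn9a*. The call for *Cldn19*, a lower gene, was lost without any 1 Nav1.7 littermate. *Sox10*, the transcription factor of peripheral glia, was 1.23-fold lower, and the myelin genes *Mbp* (-0.03) and *Pmp22* (-0.07) did not pass. Of 12 satellite glia genes, *Fabp7*, a fatty acid-binding protein gene, was 12.87 to 13.02 against 13.39 to 13.67, a difference of -0.58 (adjusted p = 0.000252). *Aqp4*, a water channel gene, was 1.35-fold higher. These 2 are 16.7% of the satellite glia list, a share near that of all autosomal genes. Markers of tissue next to the ganglion gave few calls, and some varied widely between arrays. The mean of the skeletal muscle list ran from 6.42 to 7.94 among Nav1.7 littermates and from 5.64 to 8.43 among the others, and that of the fat list from 7.07 to 7.98 over the 9 arrays. None of 14 skeletal muscle genes and none of 9 cartilage and bone genes passed in limma, and none had an unadjusted p under 0.05. In mean, 11 of the 14 muscle genes were below the others, and the median of the list was -0.16, or -0.82 with the *Xist* class. Of 8 fat genes, *Lep* was higher (12.5%) and overlapped. Of 12 spinal cord genes, *Gad1*, a GABA synthesis gene, was higher (8.33%), and it lies near *Scn9a*.

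Genes that respond to nerve injury were lower in Nav1.7 littermates, and here the Nav1.9 littermates stood highest. Axotomised sensory neurons turn on ATF3, SOX11 and growth-associated proteins. Of 22 measured genes, 15 were lower, none passed as higher and 7 did not pass (68.2% called, against 16.9% of autosomal genes). The median difference was -0.58. At an unadjusted p under 0.05, 18 were lower and none higher. The mean of the list was 7.88, 7.86 and 7.74 in Nav1.7 littermates, 8.18, 8.11 and 8.22 in Nav1.8 littermates and 9.21, 8.44 and 8.71 in Nav1.9 littermates, with replicate 1 the highest of all arrays.

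*Atf3*, the injury-induced transcription factor, was 7.64, 7.39 and 7.57 in Nav1.7 littermates, 8.48, 8.33 and 8.60 in Nav1.8 littermates and 10.35, 8.97 and 9.41 in Nav1.9 littermates. It was 2.81-fold lower (adjusted p = 0.00349). *Sprr1a*, a gene of regenerating axons, was 5.49, 5.55 and 5.52, then 6.36, 6.13 and 7.29, then 10.40, 7.77 and 8.70 in the same order, 4.77-fold lower (adjusted p = 0.0122). The SD was 1.33 among its Nav1.9 littermates, and the Nav1.7 littermates lay close together. The call for *Sprr1a* was lost against the Nav1.8 littermates alone (-1.07) and with the 6 others as 1 group. With the *Xist* class neither *Sprr1a* nor *Atf3* passed (adjusted p = 0.0815 and 0.0786). *Sox11* was 1.62-fold and *Cckbr*, a cholecystokinin receptor gene, 1.91-fold lower. *Jun*, *Bdnf*, *Stmn4* and *Nts* passed but overlapped.

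The injury count depended on the reference line. Against Nav1.8 littermates alone 4 of the 22 genes were lower, where 2482 of 17526 autosomal genes were lower. Against Nav1.9 littermates alone 16 were lower, where 1184 autosomal genes were. The injury count was 8 or 9 without any 1 of the Nav1.7 littermates or without Nav1.8 littermate replicate 1 or 2. With the *Xist* class in the fit it was 2, and the median stayed at -0.56.

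Neuropeptide genes overlap with that list. Of 19 measured, 6 were lower and 13 did not pass (31.6% called, against 16.9% of autosomal genes). *Npy*, neuropeptide Y, was 5.34, 5.67 and 5.54 against 6.03 to 8.08, 2.41-fold lower (adjusted p = 0.00525). Its call was lost against the Nav1.8 littermates alone, with the 6 others as 1 group and with the *Xist* class. *Gal*, galanin, was 1.51-fold lower (adjusted p = 0.0397), *Vgf*, a secretory granule protein gene, 1.51-fold and *Tac1*, the precursor of substance P, 1.10-fold lower. The calls for *Gal* and *Tac1* were lost without any 1 Nav1.7 littermate or any of 3 or more of the others. *Crh* lay below the range with a difference of -1.63 but did not pass (adjusted p = 0.0572). The count was 1 against the Nav1.8 littermates alone, where 2482 of 17526 autosomal genes were lower. It was also 1 with the *Xist* class, where 685 autosomal genes were lower. After median centring it was 3. It was 2 or 3 without any 1 Nav1.7 littermate, Nav1.8 littermate replicate 1 or 2, or Nav1.9 littermate replicate 3.

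Marker lists of neuron types differed in direction. Of 11 peptidergic nociceptor genes, 6 were lower and 1 was higher (63.6% called, against 16.9% of autosomal genes). *Trpv1*, the capsaicin receptor, was 11.20, 11.17 and 10.98 against 11.43 to 11.57, 1.32-fold lower (adjusted p = 0.00139, and 0.00802 with the *Xist* class). *Smr2* was 1.64-fold and *Gfra3*, the artemin receptor subunit, 1.38-fold lower. The higher gene was *Trpm8*, the cold receptor, at 4.46, 4.52 and 5.14 against 4.14 to 4.31, and its call was lost without any 1 of the other littermates. The lower count was 3 without any 1 Nav1.7 littermate or Nav1.8 littermate replicate 1 or 2, after median centring and against the Nav1.8 littermates alone, and 1 with the *Xist* class.

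Of 16 non-peptidergic genes, 3 were higher and 1 lower (25% called, against 16.9% of autosomal genes). The higher count was 6 after median centring, where that over all autosomal genes went from 987 to 2167. The fit with the *Xist* class gave 1 higher and 2 lower. Beside *Runx1*, these were *Agtr1a*, an angiotensin receptor gene, 1.37-fold higher (adjusted p = 0.00844), *Lpar3*, a lysophosphatidic acid receptor gene, 1.14-fold higher (lost without any 1 Nav1.7 littermate or 3 of the others), and *Gfra2*, the neurturin receptor subunit, 1.21-fold lower. The markers *P2rx3* (-0.01) and *Ret* (0.06) did not pass. Of 6 genes of C-fibre low-threshold mechanoreceptors, 2 were higher (33.3%). *Piezo2*, the mechanically activated channel, was 10.05, 10.01 and 10.03 in Nav1.7 littermates, 9.29, 9.21 and 9.28 in Nav1.8 and 9.90, 9.83 and 9.92 in Nav1.9 littermates. It was 1.37-fold higher (adjusted p = 0.000103), did not pass against the Nav1.9 littermates alone, and was lost with the *Xist* class (adjusted p = 0.274). *P2ry1*, a purinergic receptor gene, was 1.42-fold higher.

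All 13 genes of myelinated mechanoreceptors and proprioceptors had a higher mean in Nav1.7 littermates, and 6 passed (46.2%). These differences were small, from 1.12-fold in *Calb1* to 1.26-fold in *Scn1a*, the Nav1.1 gene, which was 10.93 to 11.08 against 10.59 to 10.75 (adjusted p = 0.00336). The count was 3 without Nav1.7 littermate replicate 2 or 3, 2 against the Nav1.8 littermates alone, and 2 with the *Xist* class. The median of this list was 0.202, and 0.235 in that last fit. Of 12 sodium channel subunit genes, 4 were higher (33.3%), *Scn1a*, *Scn7a*, *Scn8a* and *Scn2b*, and the last overlapped. *Scn2b* was 10.97 to 11.17 in Nav1.7, 11.10 to 11.22 in Nav1.8 and 10.03 to 10.05 in Nav1.9 littermates, so its difference lies with the Nav1.9 line. Of 80 potassium channel subunit genes, 12 were higher and 5 lower (21.2% called, against 16.9% of autosomal genes), led by *Kcnmb1* at 1.57-fold higher (adjusted p = 0.00521) and *Kcne4* at 1.33-fold lower (adjusted p = 0.00311). The higher count was 19 after median centring, 18 after quantile normalization and 7 without Nav1.7 littermate replicate 3. Over all autosomal genes the higher count went from 987 to 2167, 1597 and 594 in the same settings.

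**Figure D4:**
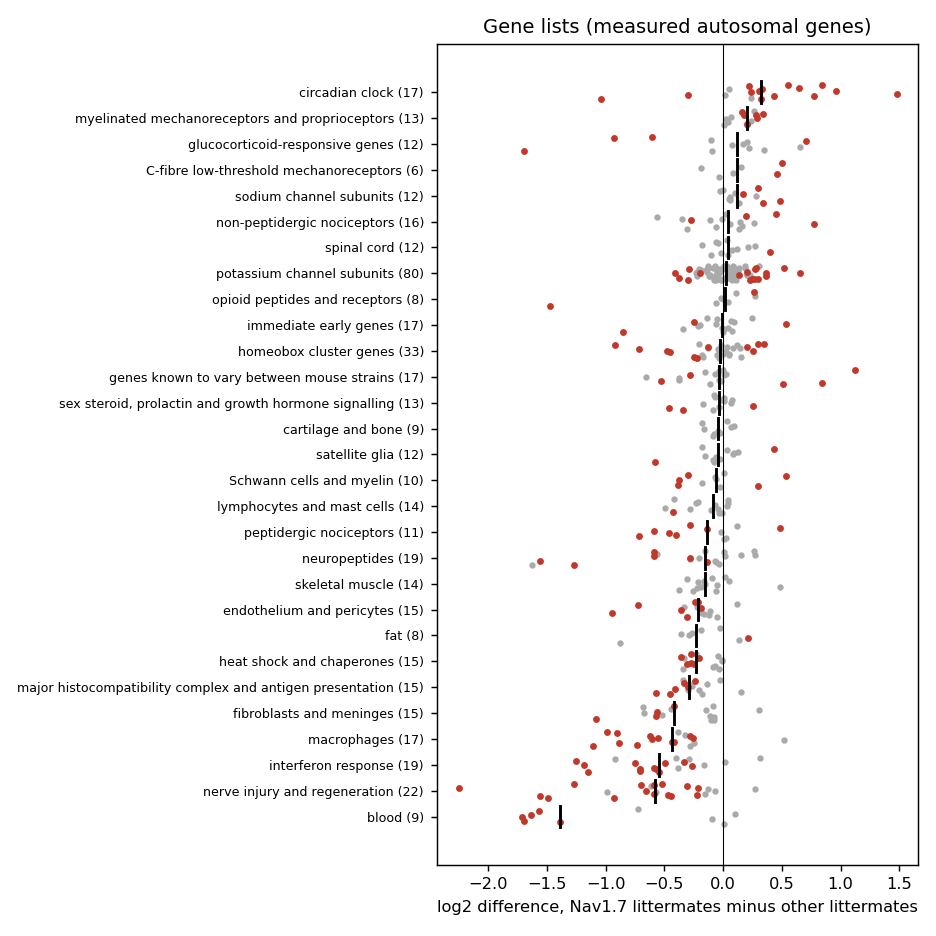
Log2 difference between Nav1.7 littermates and the other littermates (x axis) for the genes of 29 lists (y axis, with the number measured), 1 point per gene, ordered by the median (black bar). Red points passed the test. The neutrophil genes of the blood list, the nerve injury list and the interferon list lie farthest to the left, and the clock list farthest to the right.

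Homeobox cluster genes, which mark the level along the spine, were split. Of 33 measured, 4 were higher and 7 lower (33.3% called, against 16.9% of autosomal genes). *Hoxb9* was 5.90, 5.32 and 5.55 against 6.38 to 6.71, 1.89-fold lower (adjusted p = 0.000658, and 0.00481 with the *Xist* class), and *Hoxd10* was 8.02 to 8.50 against 8.64 to 9.21, 1.64-fold lower (adjusted p = 0.00429). *Hoxd1* was 1.27-fold higher. With the *Xist* class 2 were higher and 1 lower. Lower genes were 4 under either other scaling and 3 against the Nav1.9 littermates alone, and the higher count was 2 without Nav1.7 littermate replicate 1 or 3 or Nav1.8 littermate replicate 2. *Hoxd1*, *Hoxd3*, *Hoxd9* and *Hoxd10*, which met both conditions, lie 8.2 to 8.28 Mb from *Scn9a*, in a region described below. *Hoxa7*, *Hoxb2*, *Hoxb5* and *Hoxb9*, which also met them, do not lie there.

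Lists of acute responses are again set against the 16.9% of autosomal genes that passed. Of 17 immediate early genes, 1 was higher and 2 lower (17.6%), a share near that of all genes, with *Ier3* lower by a log2 difference of -0.85 (adjusted p = 0.00117), and *Fos* (-0.00) and *Arc* (-0.06) did not pass. Of 15 heat shock genes, 6 were lower and none passed as higher (40%), with all 15 lower in mean. *Hspd1*, a mitochondrial chaperone gene, was 1.28-fold and *Bag3*, a co-chaperone gene, 1.21-fold lower. That count was 3 after median centring and without Nav1.7 littermate replicate 1 or 2, and 0 with the *Xist* class. Of 12 glucocorticoid-responsive genes, 1 was higher and 3 lower (33.3%). *Ddit4* was 7.95 to 8.29 against 8.94 to 9.26, a difference of -0.93 (adjusted p = 0.000226), and *Cdkn1a* was 1.52-fold lower. *Sgk1*, a kinase gene, was 10.61 to 10.99 against 9.83 to 10.25, 1.64-fold higher (adjusted p = 0.00429, and 0.775 with the *Xist* class). The steroid target *Fkbp5* did not pass (-0.09). Of 13 genes of sex steroid, prolactin and growth hormone signalling (23.1% called), 1 was higher (*Pgr*, the progesterone receptor, 1.19-fold) and 2 lower (*Stat5a*, 1.38-fold, and *Esr1*, which overlapped).

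Of 17 genes known to vary between mouse strains, 3 were higher and 2 lower (29.4% called, against 16.9% of autosomal genes). Only *Wdfy1* and *Trim34a*, an antiviral gene 1.44-fold lower (adjusted p = 0.00219), also lay outside the range. *Nnt*, the mitochondrial transhydrogenase, was 9.33 to 9.40 in Nav1.8 and 8.68 to 8.87 in Nav1.9 littermates, and the Nav1.7 littermates overlapped with the former. *Gabra2*, a GABA receptor subunit gene, was 9.44 to 9.98 in Nav1.7, 8.22 to 8.60 in Nav1.8 and 8.88 to 9.62 in Nav1.9 littermates. For both genes the Nav1.8 and Nav1.9 littermates did not overlap with each other, so the 6 other arrays are not one uniform group. *Glo1* (0.02) and *Ide* (-0.00) did not pass. Calls of 1 or 2 genes in the strain, immediate early, glucocorticoid, opioid, fat, spinal cord and satellite glia lists moved by 1 gene when single arrays were left out.

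Genes around *Scn9a* on chromosome 2 differed more often than the rest. Of 121 genes whose start lies within 10 Mb of that of *Scn9a*, 42 passed (34.7%), and 26 of 72 from 10 to 20 Mb passed (36.1%). From 20 to 40 Mb the share was 20.5%, and beyond 40 Mb on the chromosome 16.7%, against 16.9% of all autosomal genes. Among whole autosomes chromosome 2 had the highest share, with 282 of 1408 genes, and the lowest was 13.8%. Without any 1 array, 28 to 37 genes passed within 10 Mb. In the fit with the *Xist* class, 9.92% of genes within 10 Mb, 12.5% from 10 to 20 Mb and 5.23% beyond 40 Mb passed, against 5.5% of all autosomal genes. Neighbouring genes are not independent, and no test was made of the shares.

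Of the genes within 20 Mb, 53 met both conditions, 7 of them beyond 1.5-fold. *Lypd6* and *Lypd6b*, neighbouring genes of Ly6 domain proteins that modulate nicotinic receptors, lie in the 10 to 20 Mb window. *Lypd6* was 6.67, 6.50 and 6.45 in Nav1.7 littermates, 8.06, 8.13 and 8.05 in Nav1.8 and 7.97, 8.07 and 7.97 in Nav1.9 littermates, 2.83-fold lower (adjusted p = 4.41e-07). All 3 of its probe sets lay below the range, with differences of -1.50, -1.41 and -0.98. *Lypd6b* was 7.25 to 7.46 against 8.48 to 8.73, 2.44-fold lower (adjusted p = 8.73e-06). Both passed with the *Xist* class, at -1.39 and -1.33.

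*Rprm*, a gene of a cell cycle inhibitor in the same window, was 8.86 to 8.91 in Nav1.7, 9.46 to 9.54 in Nav1.8 and 9.96 to 10.16 in Nav1.9 littermates, 1.89-fold lower (adjusted p = 7.23e-06). Closer to *Scn9a*, *Pdk1*, the pyruvate dehydrogenase kinase, was 9.01, 9.04 and 9.02 against 9.43 to 9.56, 1.40-fold lower (adjusted p = 9.1e-05), and all 4 of its probe sets lay below the range. *B3galt1*, a galactosyltransferase gene, was 7.89 to 7.99 against 8.76 to 8.94, 1.89-fold lower (adjusted p = 1.33e-06) at its brightest probe set, but its other 4 lay within the range, with differences of -0.15 to 0.18. *Rbm45* was 9.47, 9.22 and 9.22 against 8.20 to 8.59, 1.86-fold higher (adjusted p = 0.00019). *Cir1*, a corepressor gene, was 1.27-fold higher. The neighbouring channel genes *Scn1a* and *Scn7a* were 1.26-fold and 1.23-fold higher, and all 3 probe sets of each lay above the range. *Lypd6b* and *Rprm* were named after their values were seen.

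**Figure D5:**
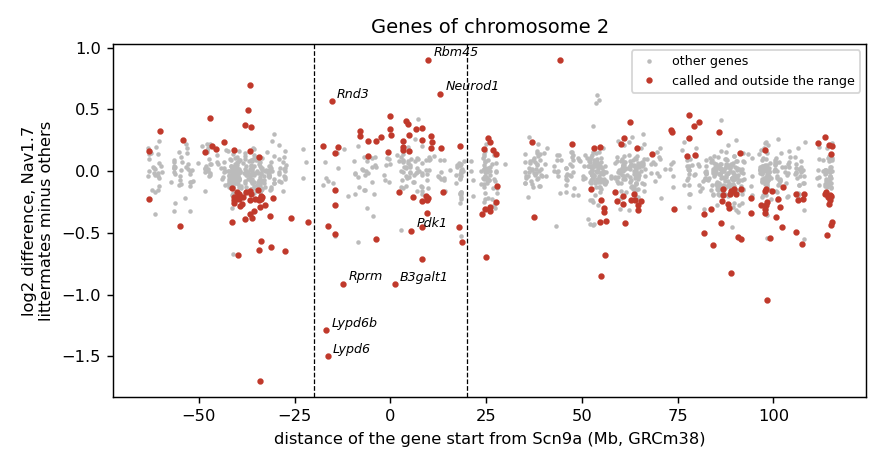
Log2 difference between Nav1.7 littermates and the other littermates (y axis) for genes of chromosome 2 by distance of their start from that of *Scn9a* (x axis, Mb), 1 point per gene. Red points passed the test and lay outside the range, and dashed lines mark 20 Mb. *Lypd6* and *Lypd6b* are the lowest within the lines.

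Probe sets of 1 gene often disagreed, as in *B3galt1* and *Ccl25*. Of the 2567 other probe sets of the genes that met both conditions, 68.8% differed in the same direction as the one used. For differences over 2-fold, 28 of 39 other probe sets had the same sign and 9 of these exceeded 1.5-fold. What sets such probe sets apart was not tested. In addition, 375 of the 2327 genes were below the 40th percentile of brightness, where the signal over background is not known.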

How the data were processed

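Signals are log2 intensities of 1 value per probe set and array, deposited by the authors, who used Affymetrix Expression Console per the labels. That the scale is log2 was read from the values, and the summary method and normalization are not given in the sources used here. Samples were grouped by title, since the source name reads littermate control for every sample, KO included.

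After 64 control probe sets were removed, 34945 of the rest had a single symbol in the platform annotation, 932 had several and 9160 had no entry. For each of 18161 genes the brightest probe set by mean over the 9 littermate arrays was kept, among those assigned to that gene alone. RefSeq (GRCm38.p6) gave current symbols and chromosomes, with 2 genes unmatched.

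Group means of the 3 littermate groups were estimated with lmFit and tested with eBayes (limma 3.58.1, R 4.3.3), which had 6 residual and 3.52 prior degrees of freedom. The contrast was Nav1.7 littermates minus the average of both other group means, on the log2 scale. Benjamini-Hochberg adjustment ran over all 18161 genes, and 0.05 was the threshold. The code was tested on simulated data. Gene lists were described by counts and medians.

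The comparison, the 29 gene lists and the *Xist* term were chosen with earlier results of these data known. Named genes are the 15 largest increases and decreases that met both conditions, up to 4 per list and 6 within 10 Mb of *Scn9a* by smallest p, the 3 channel genes, *Penk*, *Avil*, *Ceacam10*, *Runx1*, *Hoxb5* and *Pou4f2*, which no probe set measured alone. List members beyond these were named after their values were seen. Alternatives changed the samples or covariates, the scaling, the probe sets (including removal of those under the 40th percentile of brightness), the variance prior and weights, the replicate block, single arrays, the thresholds and the window around *Scn9a*. The setting of limma with an unadjusted p under 0.01 and a fold over 1.5 was chosen after seeing the data.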

Additional observations from a re-analysis of the deposited data

How the results depend on the processing

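The counts given first are higher and lower genes that passed the test, then those that also lay outside the range. They were 987 and 1981, and 756 and 1571. With the *Xist* class as a term they were 279 and 685, and 217 and 570. With the 6 others as 1 group 496 and 1241 passed, and 470 higher genes met both conditions. Against Nav1.8 littermates alone 1152 and 2471 met both, and 2466 and 4454 lay outside the range of those 3 arrays. Against Nav1.9 littermates alone 1184 lower genes passed, and 2422 and 2967 lay outside. After quantile normalization 1597 higher genes passed, 1699 lay outside and 1229 met both. After median centring 2167 and 1193 passed, 2184 and 1125 lay outside, and 1646 and 935 met both. At the thresholds of the methods, analysis of variance gave 32 and 197, and 31 and 196, and limma 44 and 232, and 38 and 221. At an adjusted p under 0.01 they were 338 and 862, and 317 and 830. Without any 1 array, 548 to 913 higher and 1321 to 1905 lower genes passed, 1233 to 1597 and 2072 to 2633 lay outside, and 503 to 742 and 1272 to 1598 met both. The lowest higher counts, 548, 606 and 594, came without Nav1.7 littermate replicates 1, 2 and 3. Within 10 Mb of *Scn9a* 42 genes passed, and 68 within 20 Mb. The count was 12 with the *Xist* class, 24 with the others as 1 group, 22 against Nav1.9 littermates alone, 3 under both fold thresholds, 22 at an adjusted p under 0.01 and 28 to 37 without any 1 array. Fewer samples, stricter thresholds and narrower ranges follow from how these alternatives were built, and the cause of the other shifts was not tested. Among the named genes that passed, *Gfra2* alone changed sign, to 0.10 without probe sets that can cross-hybridize, and of those that did not pass, *Scn9a*, *Scn10a* and *Avil* took both signs. Replicate numbers did not pair the samples (correlations of same-numbered arrays of -0.205 to 0.216), and with the number as a replicate block 781 higher and 1733 lower genes passed and 34 within 10 Mb of *Scn9a*, with 618 and 1396 meeting both conditions. No detection calls were at hand, so arrays limit what can be said of dim genes.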
